A study of Homo sapiens with 10 samples.

Results

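The septins are a family of GTP-binding proteins that assemble into rods, filaments and rings beneath membranes and along actin and microtubules. Septin filaments mark the cleavage furrow of dividing cells, where they hold the contractile ring to the membrane, and also form a diffusion barrier at the base of cilia and dendritic spines. A filament is built from members of 4 sequence groups: the SEPTIN2 group (SEPTIN1, SEPTIN2, SEPTIN4, SEPTIN5), the SEPTIN6 group (SEPTIN6, SEPTIN8, SEPTIN10, SEPTIN11, SEPTIN14), SEPTIN7 alone, and the SEPTIN3 group (SEPTIN3, SEPTIN9, SEPTIN12). Members of a group can stand in for each other at the same place in the rod.

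Expression of 9 septin genes was compared in HEK-293 cells, an established human embryonic kidney line. The genes were SEPTIN2, SEPTIN3, SEPTIN5, SEPTIN6, SEPTIN7, SEPTIN8, SEPTIN9, SEPTIN10 and SEPTIN11, matched by the platform's gene symbol. Of these, 8 are among the 18404 genes with a probe set of their own, each with a single one, and SEPTIN5 was listed only in a probe set that it shares with GP1BB. Small interfering RNAs (siRNAs) against a long non-coding RNA had been transfected 48 hours before the RNA was taken. The tested groups were LOC440173 siRNA 1 and LOC440173 siRNA 2, 2 duplexes against the same RNA at 10 nM, and 1 siRNA against PAXIP1-AS1 at 100 nM. Their references were a commercial negative control siRNA at 10 nM and the same control at 100 nM. Each of the 5 groups held 2 arrays, which the labels name biological replicates of 1 cell line, with no statement on separate cultures. The p-values therefore measure the spread between these arrays.

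The list was chosen from measured values: it was drawn up because SEPTIN3 was lower with LOC440173 siRNA 2 than in the control at 10 nM. The values of all septins with that siRNA, those outside the list included, are therefore given as a description, with no test. The other comparisons were tested with limma over all 18404 genes, and "called" means a Benjamini-Hochberg adjusted p under 0.05. Levels are on the log2 scale that RMA, the authors' normalization, gives, and differences are log2 differences. Probe sets differ in how brightly they respond, so the level of one septin was not set against that of another. Array medians lay between 7.06 and 7.12. The 2 arrays of each group had a correlation of 0.994 to 0.997 over the probe sets, and the probe sets are not replicates. The labels do not say whether the 2 arrays came from separate cultures. LOC440173, now LINC02893, was at 51.4% of its control with siRNA 1 and at 27.0% with siRNA 2. PAXIP1-AS1 had no listed probe set, so its silencing was not analysed here. The kidney progenitor genes EYA1 (mean 10.30 over the arrays) and SIX2 (9.67) were bright, while blood genes such as PTPRC (3.61) and endothelial genes such as PECAM1 (4.95) were dim on all arrays. The kidney factors PAX2 (6.83) and LHX1 (6.89) lay below the array medians. Of 9 neuronal genes, 4 lay above the median gene, among them the intermediate filament gene INA (10.96), while the neurofilament gene NEFH (6.08) and the neuronal RNA-binding gene ELAVL4 (4.24) were dim.

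**Figure D1:**
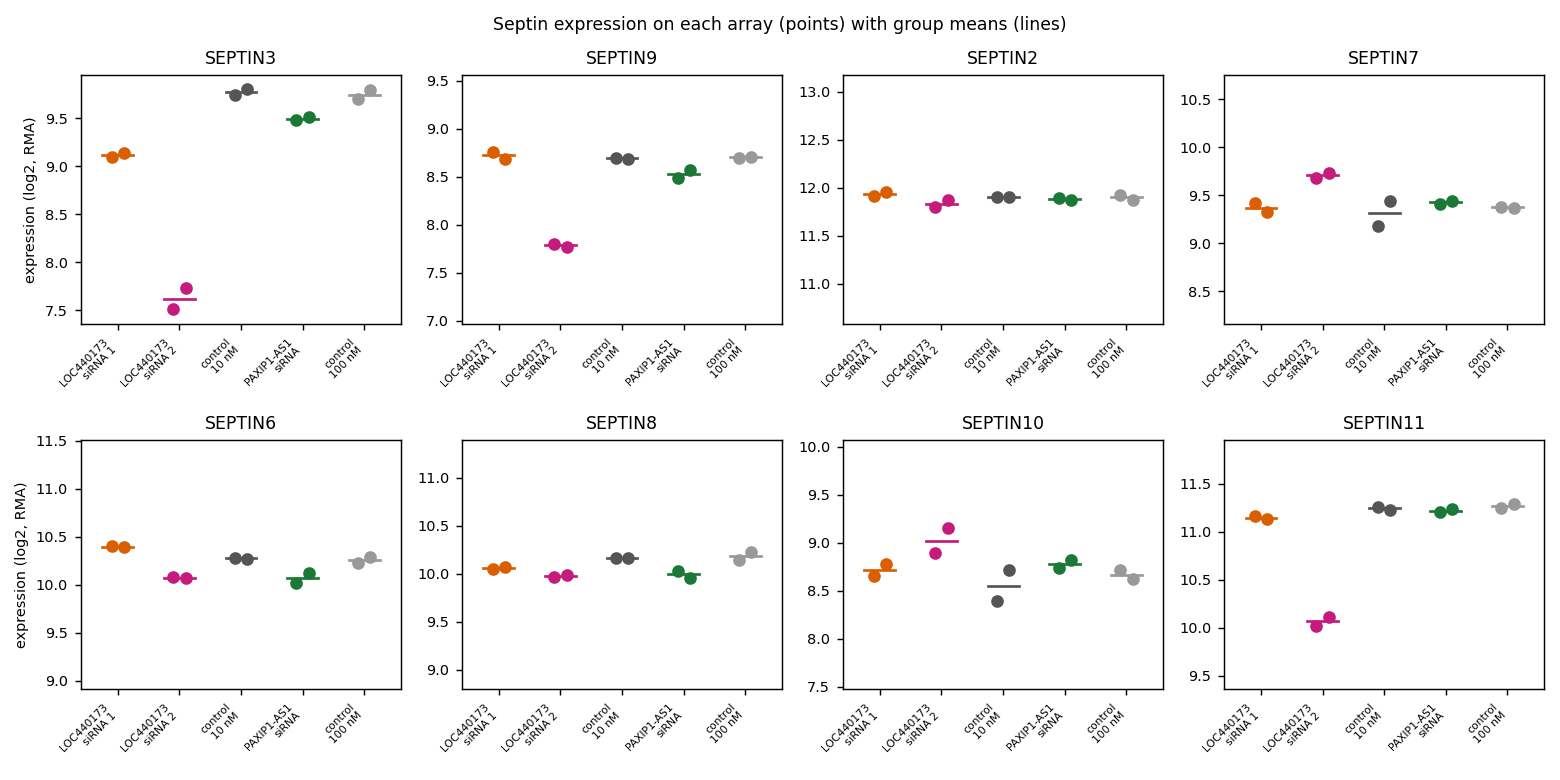
Expression of 8 septins on each of the 10 arrays (log2, RMA; points are arrays, lines are means of 2 arrays, and every panel spans the same number of log2 units). SEPTIN3, SEPTIN9 and SEPTIN11 are low on both arrays of LOC440173 siRNA 2, SEPTIN3 is intermediate with siRNA 1, and SEPTIN2 lies between 11.80 and 11.96 on all arrays.

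SEPTIN3 showed the widest range of the 8 genes. This septin is enriched in brain, where it lies at nerve terminals. Its level was 7.51 and 7.73 with LOC440173 siRNA 2, 9.10 and 9.14 with siRNA 1, and 9.74 and 9.80 in the control at 10 nM. After the PAXIP1-AS1 siRNA it was 9.48 and 9.51, against 9.70 and 9.79 in the control at 100 nM. The arrays of each siRNA lay below both arrays of their control, and siRNA 2 lay below all other arrays. With siRNA 2 the mean was 7.62 ± 0.16 (SD, n = 2), against 9.77 ± 0.041 in its control, a difference of -2.15 or 22.6% of the control level. This is the value that chose the list. In bulk RNA, fewer cells of a kind and less RNA per cell cannot be told apart.

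With LOC440173 siRNA 1, SEPTIN3 fell by 0.65 on the log2 scale to 9.12 ± 0.030, against 9.77 ± 0.041 in the control at 10 nM (SE 0.078, 95% interval -0.83 to -0.47, limma adjusted p = 0.000652). That is 63.8% of the control level. These control arrays also served the comparison that chose the list, so siRNA 1 was compared as well with the control at 100 nM, whose arrays it did not use. Against those arrays the difference was -0.63 (SE 0.078, 95% interval -0.81 to -0.45, limma adjusted p = 0.000764), although the siRNA doses then differ. Leaving out any 1 array kept the difference from the control at 10 nM between -0.68 and -0.62. No array was left out in the comparison with the control at 100 nM. The 2 LOC440173 siRNAs differed by -1.50 for SEPTIN3, siRNA 2 against siRNA 1, which is again a description.

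SEPTIN3 differed by -0.24 with the PAXIP1-AS1 siRNA (9.50 ± 0.021, against 9.74 ± 0.066 in the control at 100 nM, SE 0.078, 95% interval -0.42 to -0.06, limma adjusted p = 0.134) and was not called. It was called with dim genes left out of the fit (adjusted p = 0.0389) and with an intensity trend and robust prior (0.0425). The difference between its change with the PAXIP1-AS1 siRNA and its change with LOC440173 siRNA 1 was 0.40 (SE 0.11, limma adjusted p = 0.0422). Leaving out any 1 of the 8 arrays of those groups ended that call (adjusted p from 0.0549 to 0.135), as did testing every probe set (0.0857). The 2 controls, 100 nM against 10 nM, differed by -0.02 for SEPTIN3 (95% interval -0.20 to 0.16).

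SEPTIN9, of the same group, sits at the centre of the longer septin rods and bundles actin and microtubules. Its level was 7.80 and 7.77 with LOC440173 siRNA 2, 8.76 and 8.69 with siRNA 1, and 8.70 and 8.69 in the control at 10 nM. Both arrays of siRNA 2 lay below all others, and siRNA 1 overlapped the control. The difference with siRNA 2 was -0.91, or 53.1% of the control. With siRNA 1 it was 0.03 (95% interval -0.09 to 0.15, limma adjusted p = 0.702). In cells given the PAXIP1-AS1 siRNA the arrays read 8.49 and 8.57, against 8.70 and 8.71 in the control at 100 nM. The groups did not overlap there, and the difference of -0.18 (95% interval -0.29 to -0.06, limma adjusted p = 0.106) was not called, except with dim genes left out (0.0217). Its change with the PAXIP1-AS1 siRNA differed from that with LOC440173 siRNA 1 by -0.20 (SE 0.073, limma adjusted p = 0.0976), which passed after a second quantile normalization (0.0422) or without dim genes (0.0264).

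SEPTIN2, which binds non-muscle myosin and takes part in cytokinesis and the ciliary barrier, varied least. Its arrays read 11.80 and 11.87 with siRNA 2, 11.91 and 11.96 with siRNA 1, and 11.90 and 11.90 in the control at 10 nM. The difference was -0.06 with siRNA 2 and 0.04 with siRNA 1 (95% interval -0.08 to 0.16, limma adjusted p = 0.639). With the PAXIP1-AS1 siRNA SEPTIN2 differed by -0.02 (95% interval -0.14 to 0.10, limma adjusted p = 0.892). SEPTIN5, a presynaptic septin that binds syntaxin, could not be separated from GP1BB. Their shared probe set, which cannot be assigned to either gene, lay between 7.88 and 8.15 on all arrays, and its differences were -0.06 with siRNA 2, 0.09 with siRNA 1 and -0.07 with the PAXIP1-AS1 siRNA.

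SEPTIN7, which has no other member in its group and is a subunit of nearly all septin rods, was higher with LOC440173 siRNA 2. Its arrays read 9.68 and 9.73 with siRNA 2, 9.42 and 9.32 with siRNA 1, and 9.18 and 9.44 in the control at 10 nM. Both siRNA 2 arrays lay above every other array, and the control arrays were far apart, with an SD of 0.18. The difference with siRNA 2 was 0.40, and 0.27 without control 10 nM replicate 1 or 0.52 without replicate 2. SEPTIN7 differed by 0.06 with siRNA 1 (95% interval -0.13 to 0.25, limma adjusted p = 0.620) and by 0.05 with the PAXIP1-AS1 siRNA (95% interval -0.14 to 0.24, limma adjusted p = 0.827).

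SEPTIN7 has pseudogenes of similar sequence, and RNA of one can bind probes of another, which was not tested. SEPTIN7P11 was at 6.52 with siRNA 2 against 6.07 in its control, a difference of 0.45. SEPTIN7P13 differed by 0.17 with siRNA 2, at 10.02 against 9.85. With siRNA 1, SEPTIN7P13 fell by 0.35 to 9.49, against 9.85 in the control (SE 0.088, limma adjusted p = 0.0186), where SEPTIN7 itself did not pass the test. Leaving out siRNA 1 replicate 2 ended that call (adjusted p = 0.119), as did leaving out control 10 nM replicate 2 (0.103) or fitting just these groups (0.0596). A probe set shared by SEPTIN7P14, SEPTIN7P2 and SEPTIN7P9 differed by 0.26 with siRNA 2 and -0.11 with siRNA 1.

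The SEPTIN6 group has 4 of the listed genes, and they differed in direction with siRNA 2. The group's subunit lies between those of the SEPTIN2 group and SEPTIN7 in the rod. SEPTIN11 and SEPTIN6 were lower and SEPTIN10 higher with that siRNA, and each of these has a single start in the RefSeq promoter table used here. Their promoters are shown because 3 genes of one group with different behaviour can be read side by side. Each is the 300 bases around the start, mostly before it (RefSeq, GRCh38.p14), 5′ to 3′ on the gene's strand, and capitals mark GGGCGG or its reverse complement CCGCCC, the GC box that binds SP1-type factors.
SEPTIN11, chr4:76949502-76949801, plus strand: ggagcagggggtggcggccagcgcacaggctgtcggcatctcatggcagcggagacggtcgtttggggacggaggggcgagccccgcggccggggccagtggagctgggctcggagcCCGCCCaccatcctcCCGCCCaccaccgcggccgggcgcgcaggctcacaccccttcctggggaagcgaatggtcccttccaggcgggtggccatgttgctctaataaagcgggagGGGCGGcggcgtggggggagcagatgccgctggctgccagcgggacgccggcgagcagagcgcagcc
SEPTIN6, chrX:119693119-119693418, minus strand: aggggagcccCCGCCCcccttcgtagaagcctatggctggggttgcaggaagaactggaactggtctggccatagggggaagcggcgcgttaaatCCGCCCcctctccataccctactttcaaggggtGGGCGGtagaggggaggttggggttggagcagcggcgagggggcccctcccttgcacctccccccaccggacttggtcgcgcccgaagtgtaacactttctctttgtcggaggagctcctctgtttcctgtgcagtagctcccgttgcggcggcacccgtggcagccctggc
SEPTIN10, chr2:109613917-109614216, minus strand: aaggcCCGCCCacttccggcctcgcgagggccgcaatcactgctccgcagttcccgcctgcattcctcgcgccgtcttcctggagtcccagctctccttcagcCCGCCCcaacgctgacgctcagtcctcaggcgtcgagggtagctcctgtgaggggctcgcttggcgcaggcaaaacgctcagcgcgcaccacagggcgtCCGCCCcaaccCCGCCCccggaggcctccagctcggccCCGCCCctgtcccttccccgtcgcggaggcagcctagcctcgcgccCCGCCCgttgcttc
The SEPTIN11 and SEPTIN6 promoters hold 3 GC boxes each and the SEPTIN10 promoter 6, counted on both strands. Of 35116 promoters of this length in the table, 45% hold at least 1 and 15.8% hold 3 or more. The letters TATAAA, searched on both strands, are in none of the 3 windows and in 11.5% of all promoters. The CpG count was 31 in the SEPTIN11, 18 in the SEPTIN6 and 33 in the SEPTIN10 window. The table has 7 of the 9 genes, with 10 starts for SEPTIN9, 3 each for SEPTIN2 and SEPTIN7 and 2 for SEPTIN8. The probe sets do not tell which start was used.

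SEPTIN11, found at synapses of rat neurons and along actin fibres, read 10.02 and 10.11 with LOC440173 siRNA 2, 11.16 and 11.13 with siRNA 1, and 11.26 and 11.22 in the control at 10 nM. The siRNA 2 arrays lay about a log2 unit below all others, and siRNA 1 lay slightly below its control without overlap. The difference was -1.17 with siRNA 2, or 44.4% of the control. With siRNA 1 it was -0.09 (95% interval -0.22 to 0.03, limma adjusted p = 0.228). SEPTIN11 read 11.20 and 11.23 with the PAXIP1-AS1 siRNA, against 11.25 and 11.29 in the control at 100 nM, a difference of -0.06 (95% interval -0.18 to 0.07, limma adjusted p = 0.656).

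SEPTIN10 read 8.89 and 9.15 with siRNA 2, 8.65 and 8.78 with siRNA 1, and 8.39 and 8.71 in the control at 10 nM. Both siRNA 2 arrays were the highest of all 10, while the control arrays differed from each other by more than those of most other septins (SD 0.23). The difference with siRNA 2 was 0.47, and 0.31 without control 10 nM replicate 1 or 0.63 without replicate 2. With siRNA 1 it was 0.16 (95% interval -0.12 to 0.45, limma adjusted p = 0.351). The PAXIP1-AS1 siRNA gave 0.12 (95% interval -0.17 to 0.40, limma adjusted p = 0.712).

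SEPTIN6, a partner of SEPTIN2 and SEPTIN7 in the shorter rods, had the smallest median SD within groups (0.0082). Its SD was larger with the PAXIP1-AS1 siRNA (0.069) and in the control at 100 nM (0.043). It read 10.08 and 10.07 with siRNA 2, 10.40 and 10.39 with siRNA 1, and 10.28 and 10.27 in the control at 10 nM. The 3 groups did not overlap, with siRNA 1 above and siRNA 2 below the control. The difference was -0.21 with siRNA 2. With siRNA 1 it was 0.12 (SE 0.053, limma adjusted p = 0.130), which was called only with dim genes left out (0.0467). With the PAXIP1-AS1 siRNA SEPTIN6 read 10.02 and 10.12, against 10.23 and 10.29 in the control at 100 nM, and differed by -0.19 (95% interval -0.31 to -0.07, limma adjusted p = 0.0939). The change of SEPTIN6 with the PAXIP1-AS1 siRNA differed from its change with LOC440173 siRNA 1 by -0.31 (SE 0.074, limma adjusted p = 0.0272). That call was kept without control 10 nM replicate 1 or PAXIP1-AS1 siRNA replicate 2, and lost without each of the other 6 arrays (0.0563 to 0.0994) and with every probe set tested (0.0614).

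SEPTIN8, which binds the vesicle protein VAMP2 in rat brain, read 9.97 and 9.99 with siRNA 2, 10.05 and 10.07 with siRNA 1, and 10.16 and 10.16 in the control at 10 nM. The difference was -0.18 with siRNA 2 and -0.10 with siRNA 1 (95% interval -0.22 to 0.02, limma adjusted p = 0.188). With the PAXIP1-AS1 siRNA it read 10.03 and 9.96, against 10.14 and 10.23 in the control at 100 nM, a difference of -0.19 (95% interval -0.31 to -0.07, limma adjusted p = 0.0872). All 3 siRNA groups lay below their controls without overlap, by 0.10 to 0.19, and neither tested difference was called in the main fit. Such non-overlap of 2 against 2 arrays is common: with siRNA 2, 29.1% of all genes were lower without overlap.

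**Figure D2:**
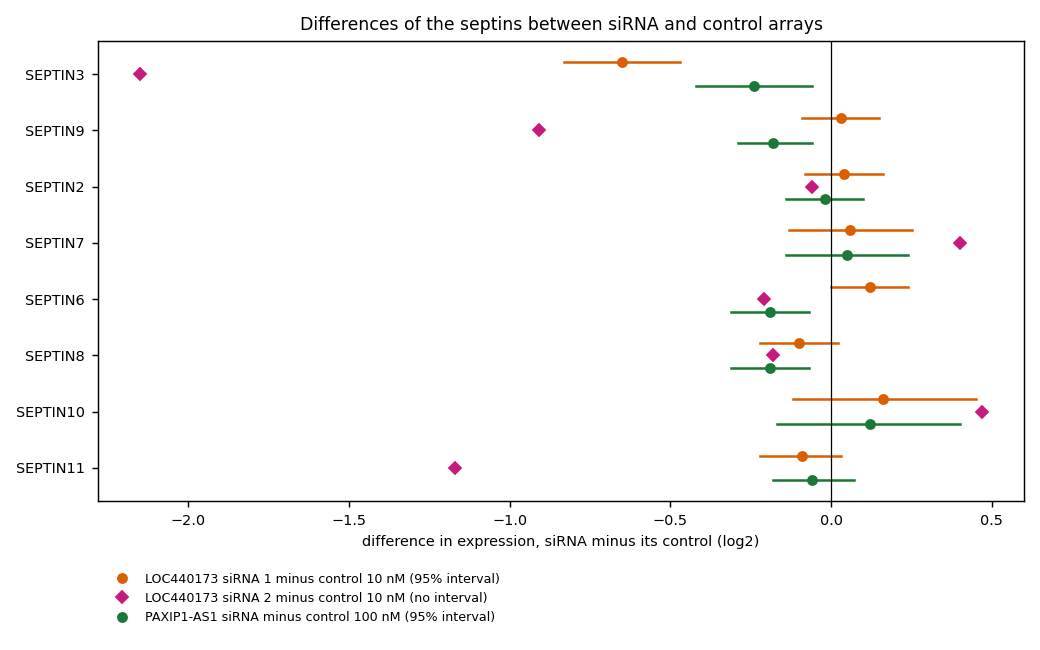
Difference of each septin between an siRNA and its control (log2; points are differences of 2-array means, bars are 95% intervals of the limma fit). LOC440173 siRNA 2, which was used to choose the list, has no interval. SEPTIN3 at -0.65 with LOC440173 siRNA 1 is the only called difference of the siRNA 1 and PAXIP1-AS1 comparisons.

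Across the family, siRNA 1 gave 1 called septin of 8, where 28.8% of all genes were called. The median difference of the 8 was 0.03, and that of all genes 0.05. With siRNA 2 the arrays did not overlap the control for 8 of 8 septins, 6 lower and 2 higher, while 29.1% of all genes were lower and 26.1% higher without overlap. That comparison chose the list, and nothing is read from the count. The median with siRNA 2 was -0.19 for the septins and 0.01 for all genes. With the PAXIP1-AS1 siRNA limma called 0 of 8 septins, against 4.62% of all genes. At an unadjusted p under 0.05 there were 4 (SEPTIN3, SEPTIN6, SEPTIN8 and SEPTIN9, all lower), where 18.2% of all genes passed. Those 4 were called with dim genes left out, where 1879 of 9202 genes were called. SEPTIN3, SEPTIN6 and SEPTIN8 were also called with an intensity trend and robust prior (limma adjusted p = 0.0425, 0.0155 and 0.0151), where 1784 of 18404 genes were called. The median of the 8 septins with the PAXIP1-AS1 siRNA was -0.12, against -0.01 for all genes. Between the controls, 100 nM against 10 nM, limma called 0 of 8 septins and 0% of all genes, with 0 septins and 3.76% of all genes at an unadjusted p under 0.05. For the difference between the PAXIP1-AS1 and siRNA 1 effects 2 of 8 septins were called, against 16.8% of all genes.

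The septins outside the list were dim on their own probe sets. SEPTIN1, SEPTIN4, SEPTIN12 and SEPTIN14 lay there between 5.05 and 6.68 on all arrays, below the array medians, and their level above background is unknown. A further probe set, shared by SEPTIN14, LINC00266-1 and PCMTD2, lay between 9.32 and 9.93 and cannot be assigned to any of them. SEPTIN4, a mitochondrial and sperm septin of the SEPTIN2 group, read 6.23 and 6.04 with siRNA 2 and 6.56 and 6.35 with siRNA 1, against 6.60 and 6.44 in the control at 10 nM. The siRNA 2 arrays lay below both control arrays, with a difference of -0.38. The other 3 differed by -0.14 to 0.03 with siRNA 2 and overlapped their control. Between the controls, 100 nM against 10 nM, SEPTIN14 differed by -0.38 without overlap (5.80 against 6.18, limma unadjusted p = 0.00505) and was not called. A difference of that size thus occurred at this level with no target siRNA. None of the 4 was called with siRNA 1 or with the PAXIP1-AS1 siRNA, with adjusted p from 0.311 to 0.632 and from 0.263 to 0.976.

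The genes most like SEPTIN3 over the 10 arrays were TTC7B (r = 0.998), H2AC21 (0.996), the tubulin tyrosine ligase TTL (0.996), TAGLN2 (0.995) and ABR (0.995), among genes at or above the median level. They were chosen for this likeness, and the arrays share their groups, so r mostly follows the 5 group means. TTC7B read 8.09 and 8.24 with siRNA 2 and 9.16 and 9.19 with siRNA 1, against 9.67 and 9.68 in the control at 10 nM. TTL read 9.10 and 9.20 with siRNA 2 and 9.78 and 9.84 with siRNA 1, against 10.13 and 10.07. Like SEPTIN3, these genes had intermediate values with siRNA 1. Among the septins, r with SEPTIN3 was 0.98 for SEPTIN11 and 0.93 for SEPTIN9 over all 10 arrays. Over the 8 arrays without siRNA 2 it was 0.88 for SEPTIN11 and -0.05 for SEPTIN9. SEPTIN7 and SEPTIN10 had r = 0.89 with each other over 10 arrays and 0.78 over those 8. Control 10 nM replicate 1 was the lowest array for both (9.18 and 8.39), and r without it was not computed. SEPTIN6 and SEPTIN9 had r = 0.71 over 10 arrays and 0.92 over those 8. For SEPTIN3 and SEPTIN7 the values were -0.86 and -0.15.

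**Figure D3:**
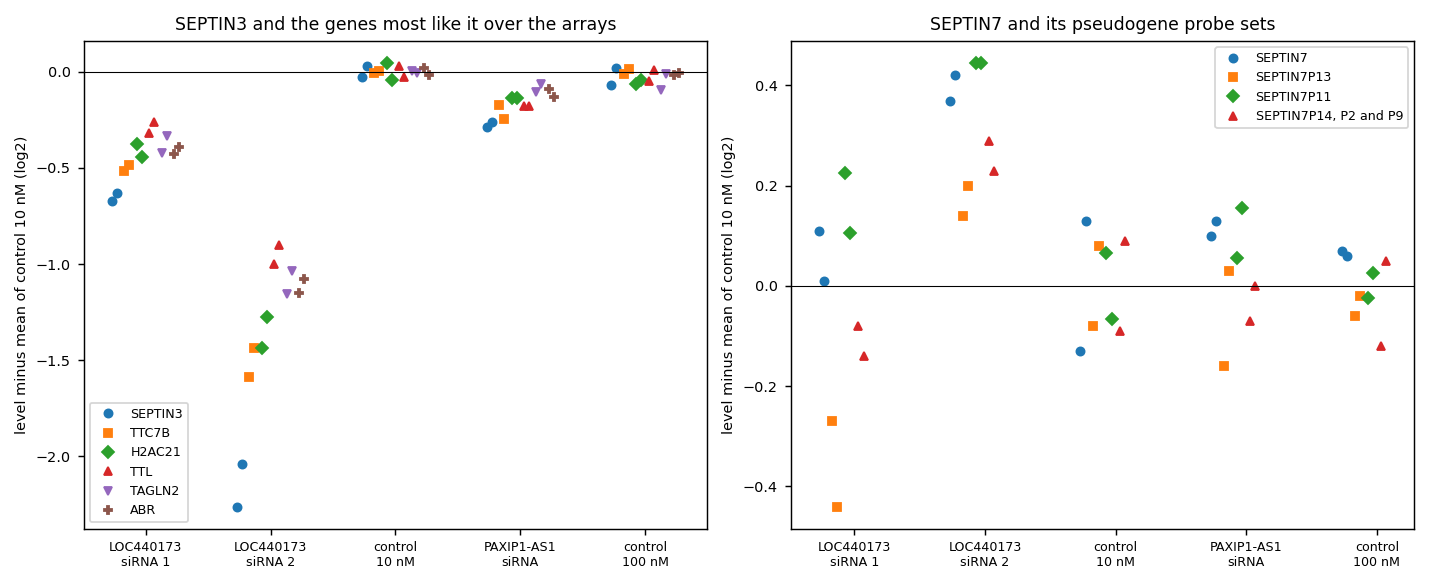
Level on each array minus the mean of the control at 10 nM (log2) for SEPTIN3 and its 5 most alike genes (left) and for SEPTIN7 and the probe sets of its pseudogenes (right). On the left all 6 genes are lowest with LOC440173 siRNA 2 and intermediate with siRNA 1. On the right SEPTIN7P13 lies below its control with siRNA 1, where SEPTIN7 overlaps it.

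Genes that bind or steer septins were compared next. The CDC42EP (Borg) proteins bind septin filaments under the control of the GTPase CDC42, anillin (ANLN) ties septins to the contractile ring, and MAP4 competes with septins on microtubules. Of 13 such genes measured, 0 rose and 4 fell with siRNA 1, 3 rose and 5 fell with siRNA 2, and 1 rose and 0 fell with the PAXIP1-AS1 siRNA. The median difference of the 13 was -0.18 with siRNA 1, -0.13 with siRNA 2 and -0.12 with the PAXIP1-AS1 siRNA. Over all genes 12.1% rose and 16.7% fell with siRNA 1, 12.5% and 17.4% with siRNA 2, and 2.86% and 1.76% with the PAXIP1-AS1 siRNA. With siRNA 1, CDC42EP3 fell by 0.62 (8.11 against 8.73, SE 0.082, limma adjusted p = 0.00101), the vesicle protein VAMP1 by 0.43 (0.00234), CDC42EP2 by 0.28 (0.00998) and CDC42 by 0.24 (0.0139).

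With siRNA 2, CDC42EP1 fell by 0.90 (8.97 against 9.88, SE 0.069, limma adjusted p = 6.36e-05) and CDC42EP4 by 0.36 (0.00330). MAP4 rose by 0.33 (0.00228) and ANLN by 0.30 (0.0182). CDC42EP1 differed by -0.19 with siRNA 1 (limma adjusted p = 0.0721), and MAP4 (0.00), CDC42EP4 (0.04) and ANLN (-0.18) were not called with it either. CDC42EP3 (-0.31, limma adjusted p = 0.0241), VAMP1 (-0.24, 0.0276) and CDC42EP2 (-0.20, 0.035) fell with siRNA 2 too. CDC42 differed by 0.12 there (0.151). These further calls with siRNA 2 were not checked under other settings. MAP4 also rose with the PAXIP1-AS1 siRNA, by 0.30 (9.39 against 9.09, limma adjusted p = 0.0207). That call was lost without each of the 4 arrays compared (adjusted p from 0.0750 to 0.169), with every probe set tested (0.0571) and in a fit of just these groups (0.0877). The CDC42EP2 and CDC42 calls with siRNA 1 were lost without siRNA 1 replicate 2 (0.0714 and 0.0892), and that of CDC42 also without control 10 nM replicate 2 (0.0696). For ANLN, leaving out siRNA 2 replicate 2 (0.105) or control 10 nM replicate 1 (0.0917) ended the call. In fits of just the groups compared the calls of CDC42EP2 (0.0597), CDC42 (0.0881), CDC42EP4 (0.0536) and ANLN (0.0952) were lost.

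Of 22 genes of the contractile ring and midbody, where septins act in cell division, 7 rose and 6 fell with siRNA 1, 5 rose and 4 fell with siRNA 2, and 0 were called with the PAXIP1-AS1 siRNA. Over all genes the shares were 12.1% higher and 16.7% lower with siRNA 1, 12.5% and 17.4% with siRNA 2, and 4.62% in either direction with the PAXIP1-AS1 siRNA. The medians of the 22 were 0.07, 0.00 and 0.04. With siRNA 1 the actin-nucleating formin DIAPH1 fell by 0.83 (8.57 against 9.40, SE 0.072, limma adjusted p = 0.000123) and the kinase ROCK1 by 0.58 (0.0122), while the midbody protein CEP55 rose by 0.33 (0.00675) and the mitotic kinase PLK1 by 0.21 (0.0149). With siRNA 2, CEP55 rose by 0.49 (limma adjusted p = 0.000839), the cytokinesis factor ECT2 by 0.45 (0.000927) and the midzone kinesin KIF23 by 0.37 (0.000928), while the kinase AURKB fell by 0.43 (0.00299). DIAPH1 differed by 0.19 with siRNA 2 (limma adjusted p = 0.0816), and siRNA 2 against siRNA 1 it was higher by 1.03 (2.13e-05). PLK1, higher with siRNA 1, fell by 0.21 with siRNA 2 (limma adjusted p = 0.0147). ECT2 rose by 0.20 (limma adjusted p = 0.0386) and KIF23 by 0.17 (0.0396) with siRNA 1, where AURKB was not called (0.0518). ROCK1 was not called with siRNA 2 (0.158). These further calls of PLK1, ECT2 and KIF23 were not checked under other settings. The siRNA 1 calls of ROCK1, CEP55 and PLK1 were lost without siRNA 1 replicate 1 (adjusted p = 0.0722, 0.0552 and 0.0556). ROCK1 and PLK1 were also lost without siRNA 1 replicate 2 (0.0521 and 0.0896) or control 10 nM replicate 2 (0.0733 and 0.0536), and PLK1 with only the compared groups (0.0831).

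Of 12 genes of the ciliary transition zone, whose barrier depends on SEPTIN2 in cultured cells, 5 rose and 2 fell with siRNA 1, 1 rose and 3 fell with siRNA 2, and 0 were called with the PAXIP1-AS1 siRNA, with medians of 0.12, 0.00 and 0.00. The same shares of all genes apply here: 12.1% rose and 16.7% fell with siRNA 1, and 12.5% rose and 17.4% fell with siRNA 2. With the PAXIP1-AS1 siRNA 4.62% of all genes were called in either direction. These shares include dim genes, and calls are more common among brighter ones. With dim genes left out, 5134 of 9202 genes were called with siRNA 1 in either direction. The 5 of 12 rising with siRNA 1 is therefore not read against the 12.1%. Whether the list differs from all genes was not tested. CC2D2A, a subunit of that zone, fell by 1.64 with siRNA 2 (5.80 against 7.44, SE 0.052, limma adjusted p = 2.31e-06) and by 0.28 with siRNA 1 (0.00500). TCTN2, another subunit there, fell by 0.40 with siRNA 2 (limma adjusted p = 0.00125) and rose by 0.83 with siRNA 1 (4.88e-05). TCTN1 rose by 0.49 (0.000429) and MKS1 fell by 0.44 (0.00255) with siRNA 2 in the same limma fit. MKS1 rose by 0.24 (limma adjusted p = 0.0445) and TCTN1 by 0.24 (0.0157) with siRNA 1, calls not checked under other settings. With siRNA 1 RPGRIP1L rose by 0.48 (limma adjusted p = 0.00987), a call lost without siRNA 1 replicate 2 (0.0598), and TCTN3 fell by 0.30 (0.00424).

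**Figure D4:**
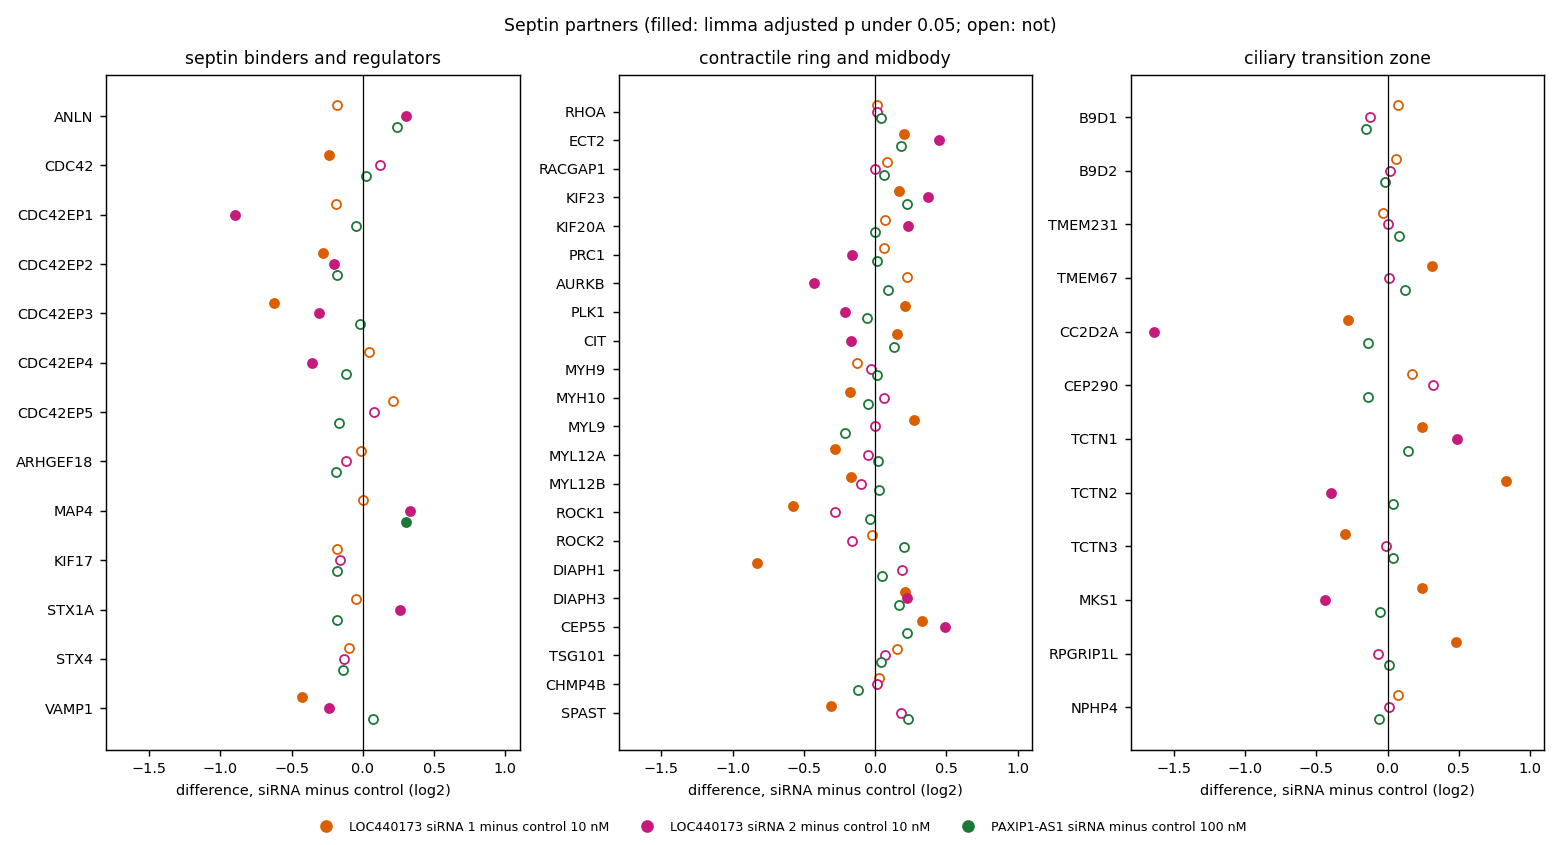
Differences between each siRNA and its control (log2) for 13 septin binders and regulators, 22 contractile ring and midbody genes and 12 ciliary transition zone genes. Filled points passed limma at an adjusted p under 0.05 and open points did not; CC2D2A with LOC440173 siRNA 2 lies at -1.64.

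Neuronal marker genes were followed because SEPTIN3 and SEPTIN5 are septins of neurons. Of 9 measured, 3 rose and 1 fell with siRNA 2, 1 rose and 2 fell with siRNA 1, and 0 rose and 2 fell with the PAXIP1-AS1 siRNA, at an adjusted p under 0.05. Of all genes 12.5% rose and 17.4% fell with siRNA 2, 12.1% and 16.7% with siRNA 1, and 2.86% and 1.76% with the PAXIP1-AS1 siRNA. The mean level of the 9 was 7.69 to 7.77 with siRNA 2 and 7.36 to 7.41 with siRNA 1, against 7.36 to 7.47 in the control at 10 nM. It was 7.27 on both arrays of the PAXIP1-AS1 siRNA, against 7.42 to 7.44 in the control at 100 nM. The part of these genes in the SEPTIN3 values was not tested.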

How the data were processed

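Gene expression was measured on Affymetrix arrays in 10 samples of HEK-293 cells, 2 per group, grouped by the titles in the labels. The deposited values are on the log2 scale, and the submitters' processing notes name RMA and limma for them, without versions. Array definition file, build and filters are not given in those notes, and the level above background is unknown.

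Of 32321 probe sets, 19158 have 1 gene symbol in the platform annotation, 1388 several and 11775 none. For 637 genes with several probe sets the brightest was used, which left 18404 genes, of which 18376 matched a RefSeq gene ID and 0 changed symbol. No column was left out.

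All arrays entered 1 limma fit (version 3.58.1, R 4.3.3) with a mean per group and eBayes, two-sided, with 5 residual and 2.87 prior degrees of freedom. Benjamini-Hochberg adjustment ran over all genes. A permutation test of 2 against 2 arrays cannot go below p = 0.333, so calls rest on the pooled spread, and the number of arrays limits the precision.

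Named were the 9 septins, the target, the other septins, SEPTIN7 pseudogenes (chosen after their values were seen), the 4 called genes with the smallest p per partner list and comparison, and the 5 genes most correlated with SEPTIN3. Members and lists were chosen with earlier results of these data known. Alternatives were a second quantile normalization, the mean of probe sets, every probe set, no dim genes, only the compared groups, a trend and robust prior, the replicate number as a block, and each array left out. Using the control at 100 nM for siRNA 1 was added after seeing the data.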

Additional observations from a re-analysis of the deposited data

Results flagged for a closer look

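SEPTIN3 and SEPTIN6 had effects that differed between the PAXIP1-AS1 siRNA and LOC440173 siRNA 1, by a test of the difference itself (limma adjusted p over all genes). SEPTIN3 was at -0.24 with the PAXIP1-AS1 siRNA and at -0.65 with LOC440173 siRNA 1, a difference of 0.40 (SE 0.11, adjusted p = 0.0422). SEPTIN6 was at -0.19 with the PAXIP1-AS1 siRNA and 0.12 with LOC440173 siRNA 1, a difference of -0.31 (SE 0.074, adjusted p = 0.0272). Both calls were lost when every probe set was tested (0.0857 and 0.0614), and leaving out any 1 of the 8 arrays compared ended at least 1 of them. Doses differ between these experiments, 100 nM for PAXIP1-AS1 and 10 nM for LOC440173, so target and dose cannot be told apart. Groups of 2 arrays were not searched for single outlying arrays.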

How the results depend on the processing

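The number of septins called with LOC440173 siRNA 1 was 1 under all alternatives except 2 with dim genes left out. In that fit 5134 of 9202 genes were called with siRNA 1. With the PAXIP1-AS1 siRNA it was 0, but 4 with dim genes left out and 3 with a trend and robust prior. For the difference between the PAXIP1-AS1 and siRNA 1 effects it was 2, but 3 with a second quantile normalization, 3 with dim genes left out, 0 with every probe set tested and 0 to 2 with 1 array left out. Genes called with the PAXIP1-AS1 siRNA numbered 850, and 432 with every probe set tested, 1879 with dim genes left out, 1784 with a trend and robust prior, 181 with only the compared groups and 110 to 895 with 1 array left out. With siRNA 1 they numbered 5301, and 3494 with only the compared groups and 3294 to 5663 with 1 array left out. With siRNA 2 they numbered 5512, and 2788 with only the compared groups. For the difference of effects they numbered 3100, and 1695 to 3624 with 1 array left out. A group left with 1 array was assumed to vary like the others. Genes called were counted out of 18404, or out of 9202 with dim genes left out. With every probe set tested they were counted out of 32321 probe sets. Counts with different totals are not comparable as they stand. The 850 genes called with the PAXIP1-AS1 siRNA in the main fit were 4.62% of 18404. The septin counts were out of 8 under each alternative. For the difference of effects, 3811 of 9202 genes were called with dim genes left out. With a second quantile normalization it was 3319 of 18404. The cause of the shifts in these counts was not tested.

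Of 824 values of single septins under alternatives, 0 reversed a call, 16 lost one and 10 gained one. Most of the 824 had no call to lose. The main fit called only SEPTIN3 with siRNA 1, and SEPTIN3 and SEPTIN6 for the difference of effects. All 16 losses fell on the calls for the difference of effects. Another 19 values, all with siRNA 2, moved by at least the SD within groups. No calls of the listed septins were made with siRNA 2, since that comparison chose them. The replicate number as a block gave 1325 called genes with the PAXIP1-AS1 siRNA and changed no count of called septins, which stayed at 1 with siRNA 1, 0 with the PAXIP1-AS1 siRNA, 0 between controls and 2 for the difference of effects. With siRNA 1 the block gave 6739 called genes, against 5301 without it. Deviations of same-numbered arrays correlated at r = 0.0674 to 0.493 over 10 pairs of groups, all positive and 6 of them over 0.1. The labels do not say whether arrays of the same number were made together. The main fit did not pair the arrays by number, and a shared effect of the number was not tested.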
